A study of Mus musculus with 6 samples.

Results

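Complement and clotting genes were examined in the livers of untreated C57Bl/6 mice aged 3 months, 3 of genotype TLR3-/- and 3 of genotype TLR3wt. Each mouse gave 1 array of total liver RNA, so the spread between arrays includes the spread between animals. The mice were bred in-house under SPF conditions, and the making of the allele and any littermate relation of the groups are not described in the sources used here. The genes were chosen by name, from a list of 39 names of complement, clotting and related plasma proteins. Since C5 and Hc name the same mouse gene, the list holds 38 genes. A gene was measured by a probe set that the array annotation assigns to that symbol alone, the brightest such set where several existed. This gave 37 genes of 10347 genes tested: 20 of complement, 14 of clotting and fibrinolysis, and 3 other plasma proteins, Vtn, Ahsg and Fgl1. C3, which encodes the central complement protein, had no probe set under this rule and is not analysed here. No gene was left out for lying at 5 on all arrays (0 of 38), 5 being the lowest value of the deposited table, and the 37 measured genes were above it on all 6 arrays.

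Complement is a cascade of plasma proteins, most of them made by hepatocytes, that marks and lyses foreign particles. It is started by antibody through C1 (the classical pathway), by sugar-binding lectins (the lectin pathway) or by spontaneous turnover on surfaces (the alternative pathway), and ends in a membrane attack complex of C5 to C9. Clotting is a second cascade of liver-made proteases and cofactors that ends with thrombin cutting fibrinogen to fibrin, which plasmin later dissolves. Several proteins of both cascades are acute-phase proteins, whose genes hepatocytes turn up in inflammation under IL-6 and IL-1. TLR3 is an endosomal sensor of double-stranded RNA.

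The Tlr3 probe set lay at 5 on all 6 arrays, so the array gave no check of the genotype labels. Hepatocyte markers were measured in 13 of 15 cases, each above 5 on all arrays. Their summed linear signal was 59284 to 61096 in TLR3wt and 56607 to 57599 in TLR3-/- livers. They had a lower value in TLR3-/- livers in 9 of 13 genes, with a median log2 difference of -0.04. Of the 13, 0 passed limma's adjusted test. At an unadjusted limma p under 0.05, 3 were lower, 23.1%, against 5.56% of all genes, and 0 were higher. Macrophage markers, including those of Kupffer cells, had a lower value in TLR3-/- livers in 18 of 19 measured genes. Of the 19, 0 passed limma's adjusted test (smallest adjusted p 0.0994). At an unadjusted limma p under 0.05, 16 of them, 84.2%, were lower, against 5.56% of all genes. Their summed signal was 3668 to 4917 in TLR3wt and 2056 to 3121 in TLR3-/- livers. Acute-phase genes outside the 37 were highest in TLR3wt replicate 3 in 18 of 18 cases. Markers of other blood cells were at 5 on all arrays in 13 of 13 cases for neutrophils, 11 of 13 for T and NK cells and 8 of 10 for B and plasma cells. The measured markers of endothelium (13), stellate cells (11), platelets (3) and bile duct (1) had median log2 differences, TLR3-/- minus TLR3wt, of 0.02, -0.02, -0.21 and 0.19. Single endothelial markers ran from -0.56 to 0.29 and stellate cell markers from -0.55 to 0.21. At an unadjusted limma p under 0.05, 2 endothelial markers were lower and 0 higher (15.4%). Of the stellate cell markers 2 were lower and 1 higher (27.3%), against 15.7% of all genes in either direction. The platelet markers lay between 5 and 5.42, so the lowest value of the table limits their difference. The bile duct marker, Sox9, lay between 5.13 and 6.06. In whole liver RNA, fewer cells of a type and less RNA per cell cannot be told apart.

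No complement or clotting gene was called as different between the genotypes. None of the 37 genes (0) passed limma's adjusted p of 0.05, where 0.0870% of all genes and 0.186% of all 16639 probe sets tested did, and 6 had an unadjusted p under 0.05, which is 16.2% of them against 15.7% of all genes. Of these 6, Cfp and Pros1 were lower in TLR3-/- livers, and C8g, F13b, Mbl1 and C1s1 were higher. An ordinary pooled-variance test also passed 0. The 3 livers of one genotype all lay on one side of the 3 of the other in 13 of the 37 genes, 35.1%, against 22.7% of all genes. Leaving Cfp aside, the differences of the 33 remaining complement and clotting genes lay between -0.40 and 0.26 on the log2 scale. For 31 of the 37 genes, 83.8%, the 95% interval of the difference lay within 1.5-fold in either direction, a bound chosen after the values were seen, and 89.7% of all genes met it. Leaving out 1 liver turned the sign or moved the difference by over 1.5 times in 31 genes. In 6, Cfp, C8g, Mbl1, F13b, Proc and Pros1, no single liver did so. This measure is relative to each gene's own difference, so genes near 0 meet it easily, and it was not counted over all genes.

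**Figure D1:**
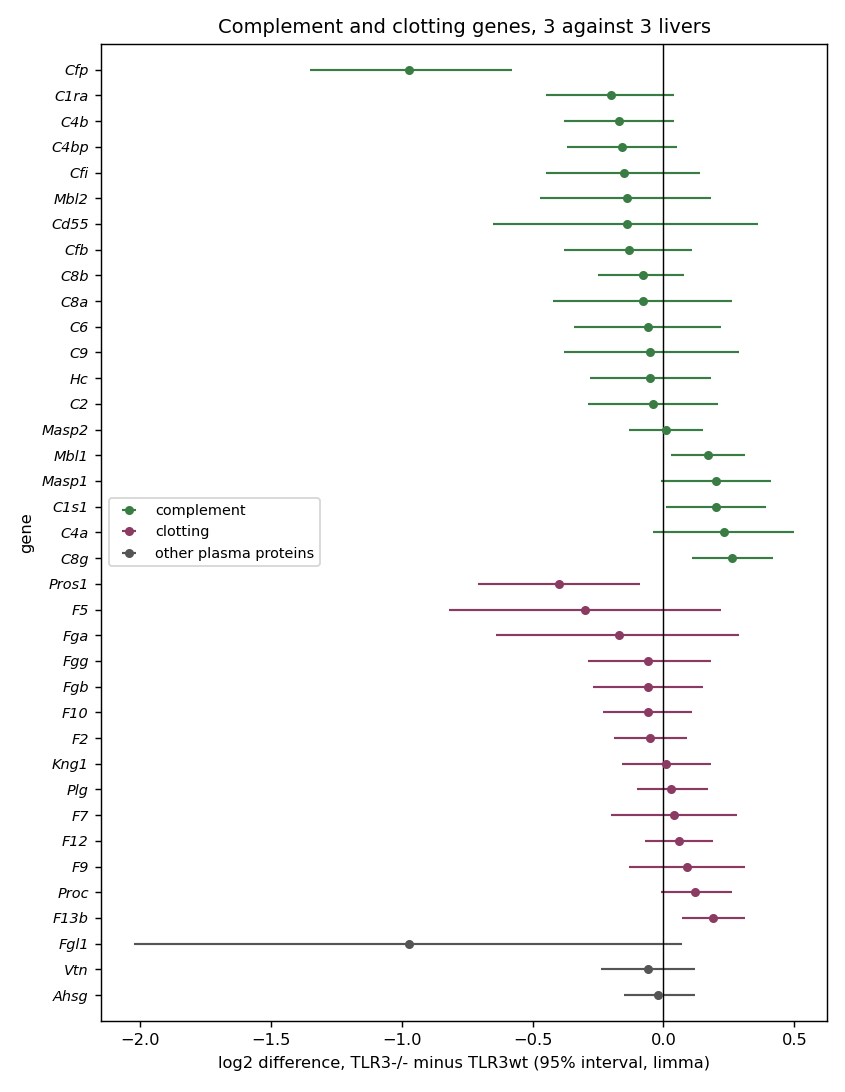
Log2 difference in signal between 3 TLR3-/- and 3 TLR3wt livers (x axis) for each of the 37 genes (y axis), with 95% intervals from limma, by group. Cfp stands apart from the other complement genes at -0.97, the interval of Fgl1 is the widest, and most other points lie within 0.3 of 0.

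The complement genes lay on both sides of 0. Of 20 genes, 14 were lower in TLR3-/- livers and 6 higher, with a median difference of -0.07 against 0.03 over all genes. The 3 TLR3-/- livers all lay below the 3 TLR3wt livers in 4 complement genes (Cfp, C1ra, C4b and C4bp), and all above them in 5 (C8g, C4a, Masp1, C1s1 and Mbl1). Over all genes these shares were 7.62% and 15.1%. With the arrays centred on their medians the counts were 6 lower and 3 higher, and the shares over all genes 15.1% and 8.68%, so the direction of the split over all genes depends on the scaling. Without TLR3wt replicate 1 the number lower was 7, where 12.6% of all genes were lower without overlap. Without TLR3wt replicate 3 the median was -0.01, and without TLR3-/- replicate 1 it was also -0.01.

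In the alternative pathway, Cfp had the largest difference of the complement genes. Cfp encodes properdin, which stabilises the C3-cleaving enzyme of this pathway and is made mainly by leukocytes. Its log2 signal was 7.32, 7.57 and 7.47 in TLR3wt replicates 1 to 3 and 6.55, 6.16 and 6.75 in TLR3-/- replicates 1 to 3. All TLR3-/- livers were below all TLR3wt livers, with TLR3-/- replicate 2 the lowest. The difference was -0.97 ± 0.16 (SE; 1.96-fold lower), with a 95% interval of -1.35 to -0.58 and a limma adjusted p of 0.112, ranging from 0.0739 to 0.481 over the alternatives. Macrophage markers moved with it: relative to TLR3wt, the average over the 19 markers stood at -0.23, 0.21 and 0.02 in TLR3wt replicates 1 to 3 and -0.60, -1.02 and -0.50 in TLR3-/- replicates 1 to 3. TLR3-/- replicate 2 was the lowest liver for the markers too, and the median difference of the markers was -0.80. Their part in the Cfp difference was not tested. The gene for factor B, Cfb, the hepatocyte-made protease of the same pathway, had 11.39, 11.40 and 11.72 in TLR3wt and 11.33, 11.39 and 11.38 in TLR3-/- livers. The groups overlapped, and the difference was -0.13, or -0.03 without TLR3wt replicate 3.

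The promoter window of Cfp is shown beside those of the 3 C8 genes, because Cfp and C8g were the complement genes with the smallest p and C8a and C8b encode the partner subunits of C8g. Windows run from 250 bases before to 50 bases after the start site, from RefSeq (GRCm38.p6), 5′ to 3′ on the gene's strand. Capitals mark 3 short motifs searched on both strands: GTTAAT, a core of HNF1 sites, CTGGGAA, the core of the type of IL-6 response element found in fibrinogen genes, and GAGGAA, a core of ETS sites such as those of PU.1. They are at chrX:20931506-20931805 (minus strand) for Cfp, chr4:104876349-104876648 (minus strand) for C8a, chr4:104766067-104766366 (plus strand) for C8b and chr2:25501670-25501969 (minus strand) for C8g.
Cfp: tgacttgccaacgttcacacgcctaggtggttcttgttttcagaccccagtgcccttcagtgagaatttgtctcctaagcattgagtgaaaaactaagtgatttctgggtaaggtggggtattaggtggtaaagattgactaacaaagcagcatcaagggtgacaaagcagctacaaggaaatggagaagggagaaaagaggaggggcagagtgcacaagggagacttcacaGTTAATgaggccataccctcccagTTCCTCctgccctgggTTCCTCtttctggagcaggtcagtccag
C8a: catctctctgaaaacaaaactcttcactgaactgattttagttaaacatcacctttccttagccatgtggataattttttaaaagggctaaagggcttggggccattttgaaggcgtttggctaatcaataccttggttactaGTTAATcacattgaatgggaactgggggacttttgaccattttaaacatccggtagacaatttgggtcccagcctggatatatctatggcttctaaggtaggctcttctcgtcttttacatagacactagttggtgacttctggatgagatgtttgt
C8b: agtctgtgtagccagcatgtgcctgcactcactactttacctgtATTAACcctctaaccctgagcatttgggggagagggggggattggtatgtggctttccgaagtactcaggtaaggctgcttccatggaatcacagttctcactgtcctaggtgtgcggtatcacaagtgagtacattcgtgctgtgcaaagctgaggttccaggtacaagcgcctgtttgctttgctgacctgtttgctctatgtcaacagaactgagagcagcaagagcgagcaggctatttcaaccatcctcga
C8g: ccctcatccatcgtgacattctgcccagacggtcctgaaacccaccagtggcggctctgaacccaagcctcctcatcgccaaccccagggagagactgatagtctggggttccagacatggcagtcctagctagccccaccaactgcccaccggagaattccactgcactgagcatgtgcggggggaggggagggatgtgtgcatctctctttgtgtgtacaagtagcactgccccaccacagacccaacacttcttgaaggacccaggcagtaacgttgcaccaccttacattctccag
The Cfp window held GAGGAA on the opposite strand at positions 7 and 23, counted from 1 at the start site, and GTTAAT at -18. C8a and C8b each held 1 GTTAAT and the C8g window shown held none of the 3 motifs.

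The 3 subunits of C8, the component that first inserts into the target membrane, lay on both sides of 0. C8g, the gene of the lipocalin-like gamma chain, was 10.19, 10.20 and 10.14 in TLR3wt and 10.47, 10.34 and 10.52 in TLR3-/- livers. All 3 TLR3-/- livers were above all 3 TLR3wt livers, with a difference of 0.26 ± 0.06 (SE; 95% interval 0.11 to 0.42; limma adjusted p = 0.179, 0.144 to 0.481 over the alternatives). C8a was 10.58, 10.66 and 11.06 in TLR3wt and 10.55, 10.77 and 10.74 in TLR3-/- livers. C8b was 10.82, 10.83 and 10.96 in TLR3wt and 10.70, 10.81 and 10.84 in TLR3-/- livers. For these pore-forming alpha and beta chains the groups overlapped, with differences of -0.08 (95% interval -0.42 to 0.26) and -0.08 (-0.25 to 0.08), and TLR3wt replicate 3 was the highest liver. Whether C8g differed from C8a and C8b in its response was not tested.

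The other terminal components stayed close to 0. Hc, the mouse gene of C5, which releases the C5a peptide when cut, differed by -0.05 (95% interval -0.28 to 0.18). C6 differed by -0.06 (-0.34 to 0.22) and the pore-forming C9 by -0.05 (-0.38 to 0.29). The signs of all 3 turned when single livers were left out.

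In the classical pathway the paired proteases of C1 lay on opposite sides of 0. C1ra, whose product activates C1s, was 7.02, 6.98 and 6.98 in TLR3wt and 6.57, 6.91 and 6.89 in TLR3-/- livers. C1s1, whose product cuts C4 and C2, was 9.51, 9.48 and 9.29 in TLR3wt and 9.66, 9.68 and 9.54 in TLR3-/- livers. The groups overlapped in neither gene, and the differences were -0.20 (95% interval -0.45 to 0.04) and 0.20 (0.01 to 0.39; limma adjusted p = 0.336). TLR3-/- replicate 1 was the lowest liver for C1ra, and without it the difference was -0.09. For C1s1 it was 0.13 without TLR3wt replicate 3. A further probe set shared by C1ra and its copy C1rb was left out, and signal from the copy may also reach the C1ra probe set.

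C4a and C4b, near-identical copies of the C4 gene, also differed in sign. C4b, the gene of the active complement protein, was 10.71, 10.64 and 10.89 in TLR3wt and 10.48, 10.61 and 10.64 in TLR3-/- livers. C4a, the gene of the sex-limited protein, was 7.38, 7.05 and 7.39 in TLR3wt and 7.43, 7.48 and 7.60 in TLR3-/- livers. The differences were -0.17 (95% interval -0.38 to 0.04) and 0.23 (-0.04 to 0.50). They were -0.10 for C4b without TLR3wt replicate 3 and 0.12 for C4a without TLR3wt replicate 2. Because the copies share most of their sequence, the assignment of signal to one or the other is uncertain. C2, the protease that joins C4b in the classical C3-cleaving enzyme, differed by -0.04 (-0.29 to 0.21).

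In the lectin pathway, Mbl1 and Masp1 were higher in all TLR3-/- livers, and the groups overlapped for Mbl2 and Masp2. Mbl1, a mannose-binding lectin, was 9.07, 9.04 and 8.95 in TLR3wt and 9.16, 9.18 and 9.23 in TLR3-/- livers, a difference of 0.17 (95% interval 0.03 to 0.31; limma adjusted p = 0.266). Masp1, a protease that such lectins carry, was 9.05, 8.91 and 9.05 in TLR3wt and 9.35, 9.18 and 9.08 in TLR3-/- livers, a difference of 0.20 (-0.01 to 0.41). In both genes the groups did not overlap, although for Masp1 the gap between the nearest livers was small and the difference 0.13 without TLR3-/- replicate 1. Mbl2, the other mannose-binding lectin, differed by -0.14 (-0.47 to 0.18) with overlapping groups, and by -0.26 to -0.07 without 1 liver. Masp2, the protease that cuts C4 in this pathway, had the smallest difference of the 20 complement genes, with 10.18, 10.08 and 10.17 in TLR3wt and 10.16, 10.10 and 10.19 in TLR3-/- livers, a difference of 0.01 (-0.13 to 0.15).

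C4bp, Cfi and Cd55, which encode regulators of complement, had slightly lower means in TLR3-/- livers. C4bp, which binds C4b and serves as cofactor of factor I, was 10.94, 10.96 and 11.21 in TLR3wt and 10.88, 10.84 and 10.90 in TLR3-/- livers, without overlap, a difference of -0.16, or -0.07 without TLR3wt replicate 3. Cfi, the gene of factor I, which inactivates C3b and C4b, was 11.03, 11.03 and 11.45 in TLR3wt and 11.02, 11.03 and 11.01 in TLR3-/- livers. Only TLR3wt replicate 3 stood above the rest for Cfi, and without it the difference was -0.01 in place of -0.15. Cd55, a membrane protein that speeds the decay of the C3-cleaving enzymes, lay close to the lowest value of the table, at 5.01 to 5.79 in TLR3wt and 5.10 to 5.48 in TLR3-/- livers. The groups overlapped for Cd55, and the difference was -0.14 (95% interval -0.65 to 0.36), or 0.03 without TLR3wt replicate 2.

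**Figure D2:**
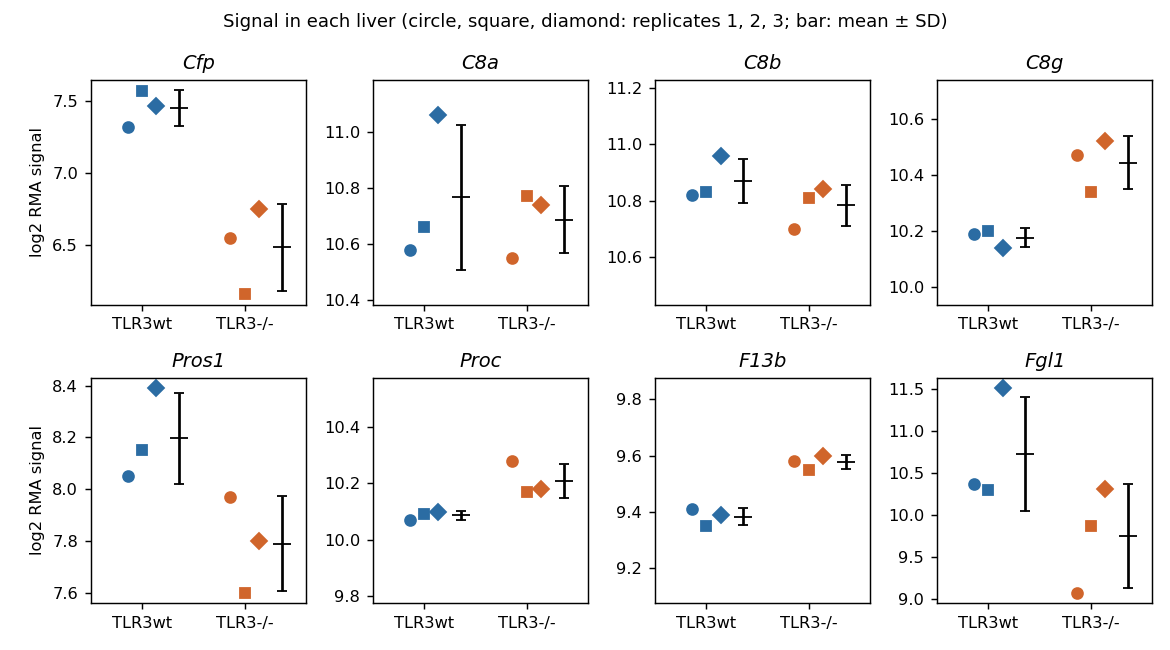
Log2 RMA signal (y axis) of 8 genes in each of the 6 livers by genotype (x axis), with the group mean and SD (n = 3) as bars; each panel has its own scale. The groups do not overlap for Cfp, C8g, Pros1, Proc and F13b, and they do for C8a, C8b and Fgl1.

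Clotting genes had small differences on both sides of 0. Of 14 genes, 7 were lower and 7 higher in TLR3-/- livers, with a median difference of -0.02, and 0 passed the adjusted test in limma, with 2 (14.3%) at an unadjusted p under 0.05, against 15.7% of all genes. The TLR3-/- livers all lay below the TLR3wt livers in 1 gene, Pros1, and all above them in 3, F13b, Proc and F12, beside 7.62% and 15.1% of all genes. With the arrays centred the counts were 2 and 1, beside 15.1% and 8.68%. The number lower was 3 without TLR3-/- replicate 2 and 2 without TLR3-/- replicate 3, where 10.6% and 11.2% of all genes were lower without overlap. For F12 the nearest livers of the 2 groups had the same value at 2 decimals. The median within-group SD of the clotting genes was 0.10 in TLR3wt and 0.06 in TLR3-/- livers, against 0.15 and 0.09 for complement genes. Whether the 2 groups of genes differed in response was not tested.

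Among the vitamin K-dependent proteins, the anticoagulant pair protein C and protein S lay on opposite sides of 0. Pros1, the gene of protein S, a cofactor of activated protein C that also binds C4BP, was 8.05, 8.15 and 8.39 in TLR3wt and 7.97, 7.60 and 7.80 in TLR3-/- livers. All TLR3-/- livers were lower, with a difference of -0.40 ± 0.13 (SE; 95% interval -0.71 to -0.09; limma adjusted p = 0.249, 0.202 to 0.481 over the alternatives). Proc, the gene of protein C, which inactivates factors Va and VIIIa, was 10.07, 10.09 and 10.10 in TLR3wt and 10.28, 10.17 and 10.18 in TLR3-/- livers. All TLR3-/- livers were higher, by 0.12 (95% interval -0.01 to 0.26). The 4 procoagulant members differed by -0.05 for F2 (prothrombin), 0.04 for F7 (factor VII, which with tissue factor starts clotting), 0.09 for F9 and -0.06 for F10. The groups overlapped in these 4 genes, and the widest of their intervals, that of F7, ran from -0.20 to 0.28.

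F5, the gene of the cofactor of factor Xa, varied more than these. It was 9.81, 9.77 and 9.93 in TLR3wt and 9.38, 10.04 and 9.19 in TLR3-/- livers. TLR3-/- replicate 2 was the highest of the 6 livers and the other 2 TLR3-/- livers the lowest, so the difference of -0.30 had a 95% interval of -0.82 to 0.22. It was -0.55 without TLR3-/- replicate 2 and -0.12 without TLR3-/- replicate 3. F13b, the gene of the carrier subunit of the fibrin-crosslinking factor XIII, had a spread of 0.03 (SD) in each group. It was 9.41, 9.35 and 9.39 in TLR3wt and 9.58, 9.55 and 9.60 in TLR3-/- livers, higher in 3 of 3 by 0.19 ± 0.05 (SE; 95% interval 0.07 to 0.31; limma adjusted p = 0.188, 0.156 to 0.422 over the alternatives).

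The contact system and plasmin precursor showed little difference. F12, the gene of the protease that starts contact activation, differed by 0.06 (95% interval -0.07 to 0.19). Kng1, the gene of kininogen, the source of bradykinin, differed by 0.01 (-0.16 to 0.18), and its near copy Kng2 may share signal with it. Plg, the gene of plasminogen, was 11.92, 11.84 and 11.96 in TLR3wt and 11.96, 11.92 and 11.95 in TLR3-/- livers, a difference of 0.03 (-0.10 to 0.17).

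The fibrinogen genes Fga, Fgb and Fgg, which encode the 3 chains of the clot protein, had their highest value in TLR3wt replicate 3. Fga was 9.71, 9.60 and 10.30 in TLR3wt and 9.76, 9.54 and 9.78 in TLR3-/- livers. Fgb was 12.13, 12.13 and 12.38 in TLR3wt and 12.12, 12.11 and 12.23 in TLR3-/- livers. Fgg was 12.19, 12.17 and 12.48 in TLR3wt and 12.22, 12.16 and 12.27 in TLR3-/- livers. TLR3wt replicates 1 and 2 lay within the TLR3-/- range in each chain. The differences were -0.17, -0.06 and -0.06 with all livers and 0.04, 0.02 and 0.04 without TLR3wt replicate 3. A second Fga probe set, dimmer than the one used, gave -0.14.

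The promoter windows of the fibrinogen genes are shown because the 3 chains shared their highest liver, which was also the highest for 20 of the 37 genes. They come from the same RefSeq table and carry the same marks. They lie within 1 cluster, at chr3:83025903-83026202 (plus strand) for Fga, chr3:83049814-83050113 (minus strand) for Fgb and chr3:83007474-83007773 (plus strand) for Fgg.
Fga: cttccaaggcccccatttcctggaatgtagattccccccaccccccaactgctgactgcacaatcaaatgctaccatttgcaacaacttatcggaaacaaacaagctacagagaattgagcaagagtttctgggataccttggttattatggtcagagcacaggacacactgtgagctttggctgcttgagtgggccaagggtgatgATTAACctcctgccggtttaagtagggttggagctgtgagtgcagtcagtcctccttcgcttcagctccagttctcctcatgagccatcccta
Fgb: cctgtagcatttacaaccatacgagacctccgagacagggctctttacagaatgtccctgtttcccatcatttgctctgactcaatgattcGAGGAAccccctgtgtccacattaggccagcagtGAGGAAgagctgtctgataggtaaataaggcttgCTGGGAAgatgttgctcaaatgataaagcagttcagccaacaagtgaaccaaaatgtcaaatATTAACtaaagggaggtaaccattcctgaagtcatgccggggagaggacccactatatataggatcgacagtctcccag
Fgg: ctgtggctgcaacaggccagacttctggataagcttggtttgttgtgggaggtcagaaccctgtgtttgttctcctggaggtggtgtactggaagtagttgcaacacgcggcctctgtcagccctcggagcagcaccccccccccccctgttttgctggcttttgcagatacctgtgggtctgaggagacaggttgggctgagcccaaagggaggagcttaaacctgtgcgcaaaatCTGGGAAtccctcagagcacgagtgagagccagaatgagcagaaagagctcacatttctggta
CTGGGAA stood at -91 in Fgb and at -13 in Fgg, and GTTAAT, on the opposite strand, at -43 in Fga and at -29 in Fgb. Fgb also held GAGGAA at -159 and -125. RefSeq promoter windows were searched for 27 of the 37 genes, 29 windows in all. Member windows on 1 chromosome were left out of the search, whereas no such filter was applied to the windows of all genes. Of the 29, 41.4% held GTTAAT (12 genes), against 7.1% of 32851 windows of all genes, 24.1% held CTGGGAA (7 genes), against 11.1%, and 13.8% held GAGGAA (4 genes), against 28.3%. Of the 7 genes with CTGGGAA, TLR3wt replicate 3 was the highest liver for F9, Fgb, Fgg and Vtn and not for C1ra, C6 and Masp2. A link between motif and liver was not tested. No matches overlap in the windows shown, and a match describes letters only.

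TLR3wt replicate 3 was the highest of the 6 livers for 20 of the 37 genes, 54.1%, against 16.2% of all genes. By group this held for 9 of 20 complement genes, 8 of 14 clotting genes and all 3 other plasma proteins. It held for 10 of the 13 measured genes taken from textbook lists of human positive acute-phase proteins. The 13 are C4b, C4bp, C9, Cfb, Mbl2, the fibrinogen chains, Plg, Pros1, Vtn and, counted as relatives of listed genes, C4a and Mbl1. Of these, C9, C4a and Mbl1 were highest in TLR3-/- replicate 3 instead. TLR3wt replicate 3 was also the highest liver for genes outside that list, among them Cfi, C8a, F2 and Ahsg. Ahsg is 1 of the 2 measured genes listed as negative acute-phase proteins, and the other, F12, was highest in TLR3-/- replicate 1. Without this liver, 15 of the 37 genes were lower in TLR3-/- livers in place of 24, since 9 turned sign: C2, Hc, C8a, F10, the fibrinogen chains, Vtn and Ahsg. Over all genes the same step moved the number of lower genes only from 4049 to 4111. The median of the clotting genes was 0.05 without this liver.

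Acute-phase genes outside the 37 set this liver apart by more. Relative to the TLR3wt mean, the mean of the 18 measured ones was -0.65, -0.32 and 0.97 in TLR3wt replicates 1 to 3, and -1.10, -0.86 and -0.90 in TLR3-/- replicates 1 to 3. They were lower in TLR3-/- livers in 18 of 18 cases, with a median difference of -0.34, or -0.19 without TLR3wt replicate 3. In limma 0 passed the adjusted test, and 6, 33.3%, were lower at an unadjusted p under 0.05, against 5.56% of all genes. Those with the smallest p were Saa3, a serum amyloid gene (-1.52), Orm2, an orosomucoid gene (-1.30), and Lcn2, a siderophore-binding protein gene (-2.58), with limma adjusted p of 0.181 to 0.258. Their part in the values of the complement and clotting genes was not tested.

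**Figure D3:**
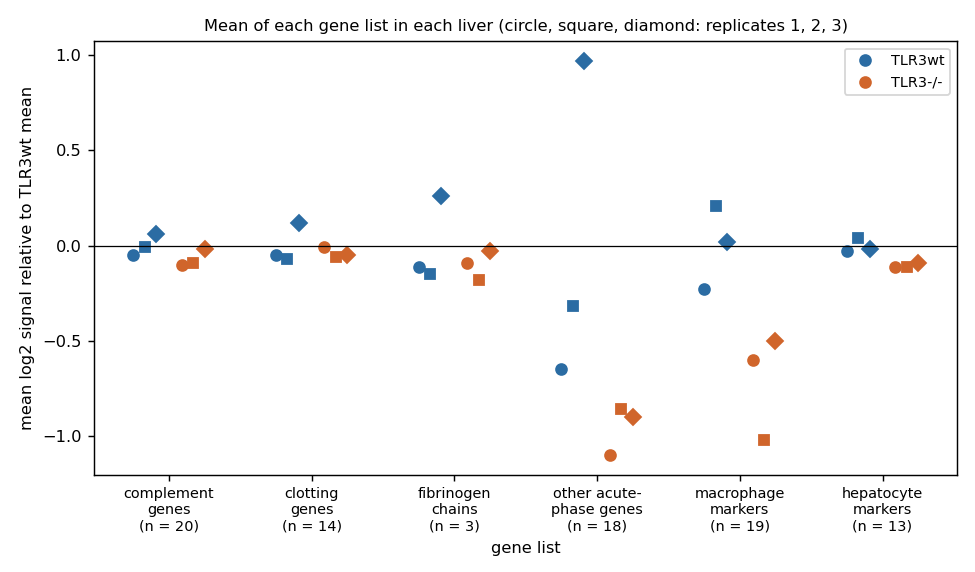
Mean log2 signal of each gene list relative to its TLR3wt mean (y axis) in each of the 6 livers, for 6 lists (x axis, with the number of genes). TLR3wt replicate 3 lies at 0.97 for other acute-phase genes, 0.26 for fibrinogen chains and 0.12 for clotting genes, and all TLR3-/- livers lie below all TLR3wt livers for macrophage markers and other acute-phase genes.

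**Figure D4:**
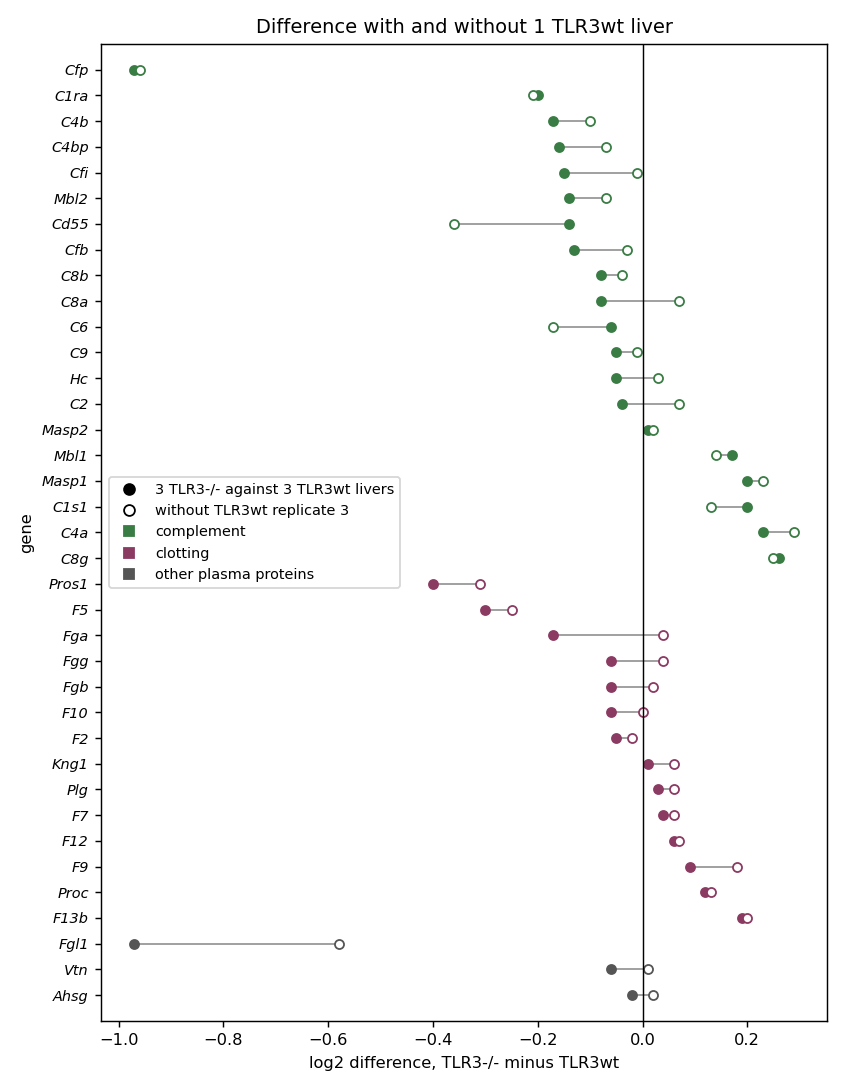
Log2 difference between TLR3-/- and TLR3wt livers (x axis) for the 37 genes (y axis), with all 6 livers (filled) and without TLR3wt replicate 3 (open). Fga goes from -0.17 to 0.04 and Fgl1 from -0.97 to -0.58, while Cfp (-0.97 and -0.96) and C8g (0.26 and 0.25) stay in place.

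Among the other plasma proteins, Fgl1 had a difference as large as that of Cfp and a far wider spread. Fgl1 encodes a fibrinogen-like protein secreted by hepatocytes, an acute-phase protein that takes no part in the clot. It was 10.37, 10.30 and 11.51 in TLR3wt and 9.08, 9.87 and 10.31 in TLR3-/- livers. TLR3wt replicate 3 was highest and TLR3-/- replicate 1 lowest, and TLR3-/- replicate 3 overlapped with the TLR3wt livers. The difference was -0.97 ± 0.43 (SE; 95% interval -2.02 to 0.07; limma adjusted p = 0.371, 0.282 to 0.588 over the alternatives), -0.58 without TLR3wt replicate 3 and -0.64 without TLR3-/- replicate 1. Fgl1 lies on chromosome 8 with 7 tested genes between it and Tlr3, so effects of DNA flanking the TLR3 allele and of the allele itself cannot be told apart for it. On the same chromosome, F11, a clotting gene outside the 37 with 1 tested gene between it and Tlr3, differed by 0.08 with overlapping groups, and F7 and F10, with 98 and 97 tested genes in between, by 0.04 and -0.06.

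Vtn and Ahsg had differences near 0. Vtn, the gene of vitronectin, which blocks the membrane attack complex and stabilises a plasmin system inhibitor, was 12.24, 12.32 and 12.49 in TLR3wt and 12.28, 12.29 and 12.31 in TLR3-/- livers. Ahsg, the gene of fetuin-A, a calcium-binding protein that falls in the human acute phase, differed by -0.02 (95% interval -0.15 to 0.12).

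Complement genes outside the 37 included several macrophage products with lower values in TLR3-/- livers. Of 18 measured genes of 29 listed, 11 were lower and 7 higher, 0 passed the adjusted test in limma, and 6 lower and 2 higher had an unadjusted p under 0.05, against 5.56% and 10.1% of all genes. Those with the smallest p were Itgb2, the beta chain of complement receptor 3 (-0.58), C1qc (-0.94) and C1qb (-0.96), chains of the C1q recognition protein, which macrophages make (limma adjusted p 0.101 to 0.154). Itgb2 was 5.40, 5.70 and 5.68 in TLR3wt and 5, 5 and 5.03 in TLR3-/- livers, so the lowest value of the table limits its difference. C1qb was 7.53, 8.09 and 7.97 in TLR3wt and 7.06, 6.53 and 7.10 in TLR3-/- livers, with TLR3-/- replicate 2 lowest as for Cfp. Chosen after their values were seen, the third chain C1qa (-0.87) and the Kupffer cell complement receptor gene Vsig4 (-0.88) were lower without overlap, and Cd59a, an inhibitor of C9 insertion (0.51), was higher without overlap, although its near copy Cd59b may share signal with it. The 3 C1q genes and Vsig4 also stand in the macrophage marker list, so these values are not separate from it. Serping1, the gene of the C1 inhibitor, made by hepatocytes, differed by -0.04, and it was also chosen after its value was seen.

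Clotting genes outside the 37 also had small differences on both sides of 0. Of 19 measured genes of 32 listed, 9 were lower and 10 higher, with a median of 0.01, and 0 passed the adjusted test in limma. At an unadjusted limma p under 0.05 stood 1 lower and 3 higher, together 21.1%. Over all genes this share was 15.7% (5.56% lower and 10.1% higher). Thbd, the gene of the endothelial thrombin receptor thrombomodulin, was 5.25, 5.43 and 5.19 in TLR3wt livers and at the lowest value of the table, 5, in all 3 TLR3-/- livers, at least 1.22-fold lower. Hrg, the gene of histidine-rich glycoprotein, which binds heparin and plasminogen, was 0.17 higher, and Vkorc1, the gene of the vitamin K-recycling enzyme, 0.21 higher, both without overlap (limma adjusted p = 0.249 and 0.263).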

How the data were processed

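Liver RNA of 6 mice was measured on 1 array each. The authors deposited log2 signals. The submitters' processing notes name RMA and Affymetrix Expression Console, and no further scaling was applied. RMA corrects background, normalises by quantiles and summarises probe sets. Between 57.2% and 57.6% of an array's values stand at the lowest value, 5, and the sources used here do not state what set it. Names came from the array annotation, updated through gene identifiers to a table of GRCm38.p6, which held 99.6% of them.

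Of 35557 probe sets, the 18918 at 5 on all arrays were left out, because values with no spread enter the shared variance, and 16639 were fitted with limma 3.58.1 in R 4.3.3 (lmFit, eBayes, genotype as the only term, two-sided, Benjamini-Hochberg over all 16639, threshold 0.05). The procedure was tested on simulated data. The number of arrays limits the precision. The 37 genes were read from that fit, and gene lists are described by counts and medians, with a gene at 5 in a whole group taken at its bound. Each list's named genes are those that passed or the 3 with the smallest p, besides F11, shown for its position, and those the text says were chosen after their values were seen. The members and lists were chosen with earlier results of these data known. Alternatives covered filters, scaling, variance model, weights, pairing, probe set choice and each mouse left out.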

Additional observations from a re-analysis of the deposited data

How the results depend on the processing

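No member gene passed the adjusted test under any alternative run (0 throughout, 4 to 7 at an unadjusted limma or pooled-variance p under 0.05). Where 4 members had such a p, so did 2183 of 16469 probe sets (without TLR3wt replicate 3) and 1791 of 16508 (without TLR3-/- replicate 2). Where 7 did, so did 2665 of 16639 (array weights) and 2203 of 16526 (without TLR3-/- replicate 3). Of all probe sets, 31 were called (23 higher, 8 lower). The number was 0 with probe sets at 5 on all arrays kept, 18 with those above 5 on all arrays, 1 with probe sets of 1 symbol, 3 with identical probe sets entered once, 9 after quantile normalization again, 14 with centred arrays (8 higher, 6 lower) and 2 without variance moderation. It was 35 with a trended, robust variance prior and 35 with array weights. Leaving out 1 liver gave 0 to 13, with 13 without TLR3wt replicate 3 and 0 or 1 without any other. The cause of these changes was not tested. The values showed no pairing of livers by replicate number. Same-numbered livers had correlations of deviations of 0.048, -0.012 and -0.063, and differently numbered livers had -0.121 to 0.139. With 3 livers a group this cannot exclude a pairing. With the number as a replicate block 4 probe sets and 0 members were called.

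The median of the complement genes, -0.07, was -0.12 with centred arrays and -0.11 to -0.01 without 1 liver, and that of the clotting genes, -0.02, was -0.07 with centred arrays and -0.05 to 0.05 without 1 liver. Centring gave 6 complement genes lower and 3 higher without overlap, and 2 clotting genes lower and 1 higher. Over all genes centring gave 15.1% lower and 8.68% higher without overlap. Without 1 liver, 4 to 7 complement genes and 1 to 3 clotting genes were lower without overlap, where up to 12.6% of all genes were. Of the 37 genes, 21 kept the sign of their difference under all alternatives run. Differences near 0 turned sign for Masp2 (-0.03 after quantile normalization again, -0.04 centred), F7 (-0.01 centred), Plg (-0.01 centred), Kng1 (-0.04 centred), and C2 and Ahsg (0.00 with array weights). Without 1 liver, 15 turned sign, with ranges of C2 -0.09 to 0.07, Hc -0.10 to 0.03, C6 -0.17 to 0.03, C8a -0.17 to 0.07, C9 -0.16 to 0.06, Cd55 -0.36 to 0.03, Masp2 -0.02 to 0.03, F7 -0.04 to 0.11, and of F10 -0.10 to 0.00, Fga -0.31 to 0.04, Fgb -0.10 to 0.02, Fgg -0.11 to 0.04, Kng1 -0.04 to 0.06, Vtn -0.11 to 0.01, Ahsg -0.04 to 0.02. With 3 livers a group, the median width of a member's 95% interval to either side was 0.22 on the log2 scale.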
